A study of Rattus norvegicus with 10 samples.

Results

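The proteasome subunit genes were described here in bone-derived cells of the skull and the limb of the rat. Members were the probes whose platform gene symbol starts with Psma, Psmb, Psmc, Psmd, Psme or Psmf and a number, without Psmb8, Psmb9 and Psmb10, with the brightest probe kept for each gene. This gave 38 genes, each measured by 1 probe, of 13336 named genes and 22517 probes in all. Of these, 37 encode subunits or bound partners of the proteasome: 16 of the core particle (Psma1 to Psma8, Psmb1 to Psmb7 and Psmb11), 18 of the regulatory particle (Psmc1 to Psmc6, Psmd1 to Psmd9 and Psmd11 to Psmd13) and 3 activators (Psme1, Psme2 and Psme4). The other gene, Psmc3ip, matched by its letters only. Its product acts in meiotic recombination, and it was kept out of every count of subunit genes. Psmd5 and Psmd9 encode chaperones of base assembly and were counted with the regulatory particle by their symbols. Psmd10, Psmd14, Psme3 and Psmf1 were not analysed here.

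The cultures came from 5 male CD rats, with no treatment or altered genotype named in the labels. Each rat gave a calvarial culture (S-Bdc) and an ulnar culture (L-Bdc), so that site was compared in 5 matched pairs of the same animals. Third-digest bone cells were expanded in medium with newborn calf serum and taken for RNA at passage 3 and 95% confluence, and each culture was hybridised to 1 Illumina rat expression BeadChip array. Such cultures are mixed populations of adult bone cells and are not clonal.

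Median raw signals of the arrays ran from 40.6 to 48.1 units. Precision is limited by how many arrays there were. Of the osteoblast markers, 9 of 10 were measured, and at an adjusted p under 0.05 in limma 1 was higher in S-Bdc (Col1a1, by 0.58 on the log2 scale) and 1 was lower (Spp1, osteopontin, -1.81). That is 22.2% of the 9, against 9.10% of all probes called. Of the 9, 7 were above background on all 10 arrays, and 20.0% of such probes were called. Col1a1 and Sparc, matrix genes of bone cells, were above background on every array, whereas Sp7, the transcription factor that commits cells to the osteoblast fate, was above background on 2 arrays of S-Bdc and 1 of L-Bdc, and Bglap, osteocalcin, on 3 of S-Bdc and 1 of L-Bdc. Of 27 measured markers of osteoclast, monocyte or macrophage, endothelial, adipocyte, muscle, neuronal and cartilage cells, 0 were higher and 2 were lower in S-Bdc at an adjusted p under 0.05 (Mmp9 and Tubb3). That is 7.41% of the 27, against the same 9.10% of all probes. The summed processed signal of the 27 markers was 2076 to 2774 units in S-Bdc and 2384 to 3043 units in L-Bdc. Of the 27 markers, 7 were above background on all 10 arrays and 11 on 0 arrays. The 7 include 2 of 4 osteoclast markers, with a mean log2 signal of up to 10.9, and 1 of 3 monocyte or macrophage markers. They also include 1 of 4 adipocyte, 1 of 5 muscle, 1 of 5 neuronal and 1 of 3 cartilage markers, and 0 of 3 endothelial markers. Ptprc, Cdh5, Adipoq, Myog and Col2a1 were among the 11 within the background range on every array.

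The proteasome is the protease that degrades proteins tagged with ubiquitin. Its core particle is a barrel of stacked rings, in which the alpha subunits form the outer rings and gate the entry, and the beta subunits form the inner rings and hold the catalytic sites. The regulatory particle caps the barrel. Its base holds the ATPases that unfold the substrate, and its lid holds the enzyme that removes ubiquitin. The Psme1 and Psme2 products form another cap, which opens the barrel without ubiquitin or ATP. In cells exposed to interferon, Psmb8, Psmb9 and Psmb10 replace the constitutive catalytic subunits Psmb5, Psmb6 and Psmb7. In bone-forming cells, the proteasome is known for the turnover of Runx2 and of beta-catenin.

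The 3 elements known to act on proteasome genes were looked for in promoters: the core of the antioxidant response element (TGACNNNGC, bound by Nfe2l1 and Nfe2l2), the core of the interferon-stimulated response element (GAAA and GAAA with any 2 bases between) and the CCAAT box (CCAAT, bound by the Nfy complex), on both strands. The window ran from 250 bases before to 50 bases after the annotated start of each gene (RefSeq, rat assembly GRCr8), and a promoter was at hand for 33 of the 37 subunit genes, those of Psma7, Psmb11, Psmd6 and Psmd12 being without one. The promoters of Psme1, Psme2 and Psmb8 are shown because these genes gave the activator and immunosubunit results, and those of Psmb6 and Psmc1 because both genes were lower in S-Bdc in every pair. Capitals mark the matches, and a match on the opposite strand appears as its reverse complement.

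Psme1 promoter, chr15:33038721-33039020, plus strand, with 0 matches:
Psme1: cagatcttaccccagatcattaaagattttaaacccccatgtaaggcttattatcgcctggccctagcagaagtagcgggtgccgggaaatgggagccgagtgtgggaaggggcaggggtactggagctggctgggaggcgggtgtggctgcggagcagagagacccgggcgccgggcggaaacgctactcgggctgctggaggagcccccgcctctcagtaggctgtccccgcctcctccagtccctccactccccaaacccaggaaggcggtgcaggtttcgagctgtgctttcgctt

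Psme2 promoter, chr15:33052702-33053001, minus strand, with 1 match to the interferon-stimulated element from base 198 to base 207:
Psme2: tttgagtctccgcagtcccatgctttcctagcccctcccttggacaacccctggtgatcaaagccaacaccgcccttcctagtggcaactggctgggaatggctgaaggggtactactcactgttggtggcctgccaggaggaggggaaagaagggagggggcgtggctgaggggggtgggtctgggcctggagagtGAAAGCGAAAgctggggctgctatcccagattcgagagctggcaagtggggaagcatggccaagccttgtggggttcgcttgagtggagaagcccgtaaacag

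Psmb8 promoter, chr20:4656982-4657281, minus strand, with the interferon-stimulated element on the opposite strand from base 247 to base 256 and a CCAAT box on the opposite strand from base 178 to base 182:
Psmb8: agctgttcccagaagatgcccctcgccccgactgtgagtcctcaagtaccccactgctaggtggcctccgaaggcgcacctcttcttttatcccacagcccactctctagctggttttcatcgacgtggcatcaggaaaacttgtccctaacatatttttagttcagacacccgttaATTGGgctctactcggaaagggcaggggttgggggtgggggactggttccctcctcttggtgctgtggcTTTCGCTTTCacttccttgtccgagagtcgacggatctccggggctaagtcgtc

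Psmb6 promoter, chr10:55737638-55737937, plus strand, with 1 match to the antioxidant element from base 227 to base 235:
Psmb6: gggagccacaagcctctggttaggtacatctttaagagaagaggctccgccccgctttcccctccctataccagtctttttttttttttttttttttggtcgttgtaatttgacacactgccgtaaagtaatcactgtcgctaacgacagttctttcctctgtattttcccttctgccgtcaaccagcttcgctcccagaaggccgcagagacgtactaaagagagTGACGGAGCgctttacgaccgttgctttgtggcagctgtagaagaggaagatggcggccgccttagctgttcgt

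Psmc1 promoter, chr6:125122247-125122546, plus strand, with 1 CCAAT box from base 89 to base 93:
Psmc1: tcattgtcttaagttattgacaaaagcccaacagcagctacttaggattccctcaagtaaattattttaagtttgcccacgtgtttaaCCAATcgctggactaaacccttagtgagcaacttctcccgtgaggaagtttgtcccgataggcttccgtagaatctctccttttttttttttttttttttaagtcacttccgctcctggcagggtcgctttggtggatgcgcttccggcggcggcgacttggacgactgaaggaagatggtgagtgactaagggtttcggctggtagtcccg

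Psme1 and Psme2 lie near each other on chromosome 15, on opposite strands. Of the 5 windows, the interferon-stimulated element was found whole in those of Psme2 and Psmb8. The Psme1 window ended in tttcgctt, the first bases of the match marked in Psmb8. An element that crosses this edge could not be scored. The antioxidant element was found in 8 of 33 subunit promoters (24.2%), against 12.1% of 33469 promoters of the same length. The interferon-stimulated element was found in 4 of 33 (12.1%), namely Psma4, Psmb3, Psmd7 and Psme2, against 3.92% of all promoters. The CCAAT box was found in 15 of 33 (45.5%), against 37.5%. No match overlapped another in the windows shown. These are matches of letters and not measured binding.

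Most subunit genes of the proteasome differed little between S-Bdc and L-Bdc. Of the 37 genes, 2 passed an adjusted p of 0.05, which is 5.41% against 9.10% of all 22517 probes. Psmd12, a scaffold subunit of the lid, was lower in S-Bdc, and Psme1, the alpha chain of an interferon-inducible activator, was higher. The estimates of 16 genes lay above 0 and those of 21 lay below it, and the median difference, S-Bdc minus L-Bdc, was -0.034 on the log2 scale, beside -0.0015 for all probes. Differences of 7 of the 37 genes had an unadjusted p under 0.05, a share near the 18.8% of all probes in both directions. Of the 7, 6 were lower and 1 was higher in S-Bdc. Among the 33 genes above background on all 10 arrays, 6 had such a p, with 5 lower and 1 higher. Each gene's 95% confidence interval lay within a log2 difference of 0.5 either way, or 1.41-fold, for 37 of 37 genes, and the widest bound was 0.491, for Psmd12. Values after ± are the moderated SE of the limma fit on n = 5 pairs, which also draws on the variance of all probes. All log2 differences are S-Bdc minus L-Bdc, on the scale of log2 of background-corrected signal plus an offset of 50 after quantile normalisation. The offset makes this scale understate the difference of dim probes.

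**Figure D1:**
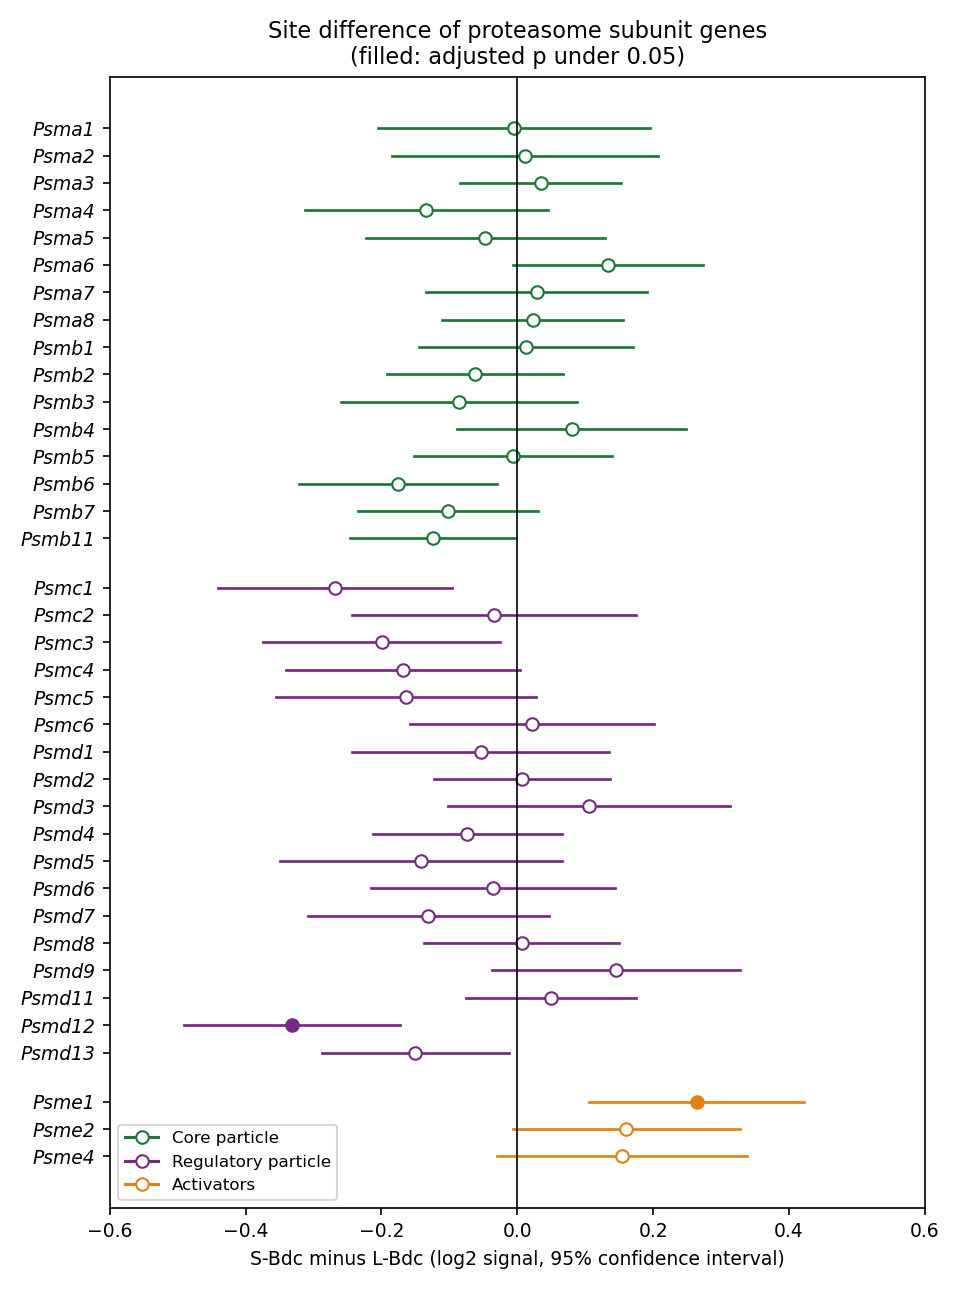
Differences between S-Bdc and L-Bdc in log2 signal (horizontal axis) for the 37 subunit genes, as points with 95% confidence intervals from limma over 5 matched pairs, coloured by particle. Filled points are the 2 genes past an adjusted p of 0.05, Psmd12 and Psme1, and every interval lies between -0.5 and 0.5.

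Few of these genes were dim. Of the 37 genes, 33 were above background on all 10 arrays, and 2 of these 33 were called (6.06%), whereas 20.0% of the 9092 probes above background on all 10 arrays were called. The median size of the difference, whatever its sign, was 0.0854 for the subunit genes and 0.113 for those bright probes. The spread between cultures of a site was similar or larger, with a median SD among S-Bdc of 0.151 and among L-Bdc of 0.126 for subunit genes, and of 0.127 and 0.119 for the bright probes. Medians and shares of members stand here as descriptions, without a test of the list. In these cultures, less of a transcript per cell and fewer cells that make it cannot be told apart.

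In the core particle, 0 of 16 genes passed the threshold in limma, against 9.10% of all probes, and the lowest adjusted p was 0.160. An unadjusted p under 0.05 was found for 2 of the 16, against 18.8% of all probes. Differences ran from -0.18 to 0.13 with a median of -0.006. The smallest belonged to Psma1, an alpha ring subunit (-0.0051 ± 0.089), and to Psmb5, which carries the chymotrypsin-like activity (-0.0068 ± 0.065). Their 95% intervals ran from -0.21 to 0.20 and from -0.15 to 0.14. Psmb4, a beta ring subunit, had the brightest probe of the core and differed by 0.08 ± 0.07. Psma8, an alpha subunit of male germ cells, had the dimmest, above background on 1 S-Bdc array and 0 L-Bdc arrays. Psmb11, the catalytic subunit of the thymus, was above background on 0 S-Bdc arrays and 1 L-Bdc array, and both genes were within the background range on the other arrays. Psmb11 was 1 of the 2 core genes with an unadjusted p under 0.05. Without Psma8 and Psmb11, 1 of the other 14 core genes had such a p, and their median was -0.006.

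The rings did not stand far apart, with a median difference of 0.017 over the 8 alpha genes and of -0.074 over the 8 beta genes. Psmb6 and Psma6, named after their values were seen, had the same sign in 5 of 5 pairs. Psmb6 encodes the caspase-like subunit. Its signal in rats 1 to 5 was 10.43, 10.67, 10.69, 10.65 and 10.45 in S-Bdc and 10.86, 10.89, 10.82, 10.67 and 10.52 in L-Bdc. The sites overlapped through L-Bdc of rats 4 and 5, and the difference of -0.18 ± 0.06 did not pass the threshold (limma, adjusted p = 0.160). Psma6, an alpha ring subunit, had signals of 11.62, 11.47, 11.29, 11.32 and 11.45 in S-Bdc and of 11.22, 11.36, 11.22, 11.29 and 11.39 in L-Bdc. The sites overlapped, and the difference of 0.13 ± 0.06 did not pass either (adjusted p = 0.298). In all, 1 of the 37 genes was higher in S-Bdc in every pair, against 8.15% of all probes, and 3 were lower, against 8.76%.

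In the regulatory particle, 1 of 18 genes was lower in S-Bdc and 0 were higher, against 4.68% of all probes lower and 4.43% higher. Without the chaperone genes Psmd5 and Psmd9, it was 1 of 16 called, or 6.25% against 9.10% of all probes in both directions. The gene was Psmd12, whose product bridges the lid to the rest of the particle. Its signal in rats 1 to 5 was 9.96, 9.54, 9.66, 9.86 and 9.67 in S-Bdc and 9.98, 9.9999, 10.17, 10.19 and 10.01 in L-Bdc. S-Bdc was lower in 5 of 5 pairs and the sites did not overlap, although S-Bdc of rat 1 came close to L-Bdc of the same rat. The difference was -0.33 ± 0.07 (limma, adjusted p = 0.017), a 1.26-fold lower signal in S-Bdc. Without rat 2, 3, 4 or 5 the adjusted p was 0.0601, 0.0807, 0.0659 or 0.053, and with no normalisation between arrays, median scaling or processed intensities with a floor it was 0.449, 0.311 or 0.201, with the direction kept.

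Psmc1, a base ATPase, was the other subunit gene without overlap between the sites, both with S-Bdc lower, as in 3.56% of all probes (3.45% for S-Bdc higher). Its signal was 11.17, 11.50, 11.60, 11.49 and 11.60 in S-Bdc and 11.82, 11.71, 11.75, 11.63 and 11.77 in L-Bdc, again for rats 1 to 5. Every S-Bdc value lay below every L-Bdc value, and S-Bdc of rat 1 lay far below the other S-Bdc values. The difference was -0.27 ± 0.08, with an adjusted p of 0.064 (limma), and it was -0.17 without rat 1. With no replicate block for the pairing by rat, the adjusted p was 0.0451. Under 11 of 13 alternatives Psmc1 did not pass. Its adjusted p was 0.278 with no normalisation between arrays, 0.177 with median scaling and 0.364 with processed intensities with a floor.

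**Figure D2:**
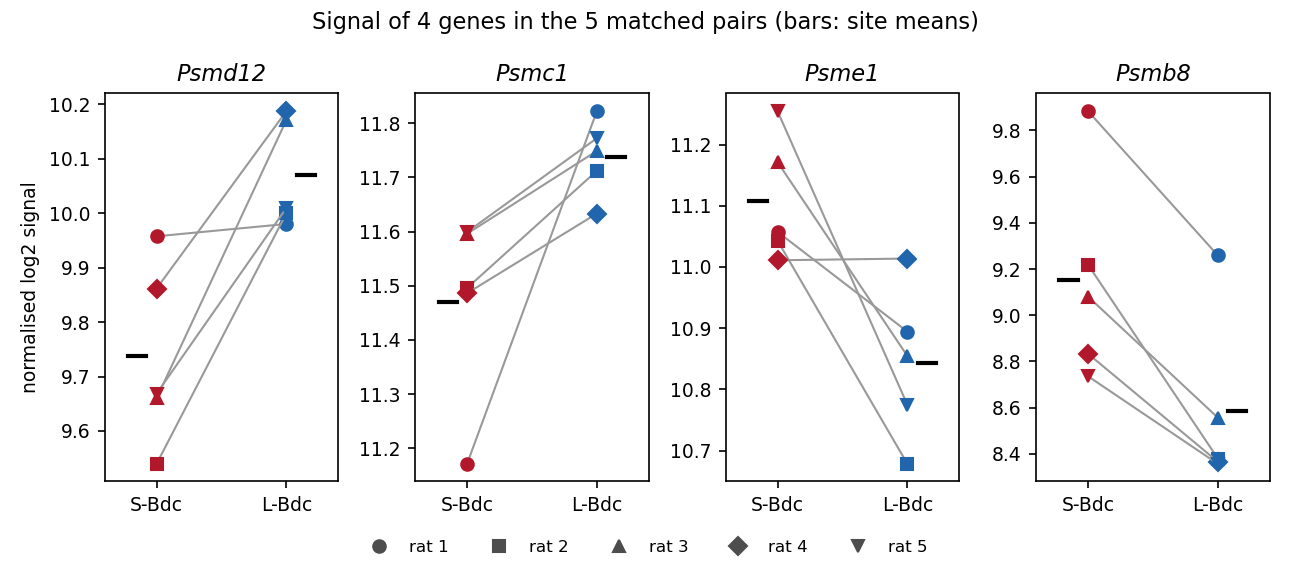
Normalised log2 signal (vertical axis, a range of its own in each panel) of Psmd12, Psmc1, Psme1 and Psmb8 in S-Bdc and L-Bdc, with lines joining the cultures of a rat, a symbol for each rat and black bars at the site means. Psmd12 and Psmc1 are lower in S-Bdc in 5 of 5 pairs, Psme1 is higher in 4 and Psmb8 in 5.

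The 6 ATPases of the base, which form the ring that threads the substrate into the core, were the subunit group with the lowest median, -0.17, and 5 of 6 estimates were below 0. Of these, Psmc1, Psmc3 (-0.20 ± 0.08, adjusted p = 0.186), Psmc4 (-0.17 ± 0.08, 0.279) and Psmc5 (-0.16 ± 0.09, 0.366) made up the lower end. In limma 0 of 6 passed, against 9.10% of all probes, and 2 had an unadjusted p under 0.05, against 18.8%. Psmc2 and Psmc6, of the same ring, had differences of -0.03 ± 0.09 and 0.02 ± 0.08. The median of the 7 measured lid genes was -0.036. Apart from Psmd12, the lid subunit gene Psmd13 was the lowest (-0.15 ± 0.06, adjusted p = 0.214). The smallest differences of the particle belonged to Psmd2, a scaffold of the base (0.0071 ± 0.057), and to Psmd8, a lid subunit (0.0068 ± 0.064). Psmd8 also had the dimmest probe of the particle, above background on 3 arrays of S-Bdc and 4 of L-Bdc, and Psmc1 had the brightest.

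The pairs did not share 1 pattern. Over the regulatory particle, the median difference of rats 1 to 5 was -0.05, 0.06, -0.07, -0.17 and -0.20. Over the base ATPases it was -0.02, 0.02, -0.15, -0.24 and -0.29, and in rats 4 and 5 it was 6 of 6 ATPases that were lower in S-Bdc. Over the core particle it was -0.09, 0.03, -0.06, 0.03 and -0.04, on both sides of 0. Cell cycle genes moved between the sites in the same cultures. Of 29 measured genes of a cell cycle list of 35, 22 were lower and 0 higher in S-Bdc, which is 75.9% against 4.68% of all probes lower, and the median of the list in rats 1 to 5 was -0.32, -0.29, -0.60, -0.84 and -1.004. Rats 4 and 5 were the pairs with the lowest medians in the base ATPases and in the cell cycle list. The same held for the lid and for Psmd5 and Psmd9, but not for the core particle or the activators. It did not hold either for Psmd1, Psmd2 and Psmd4, the non-ATPase genes of the base, with medians of -0.21, 0.07, -0.04, 0.04 and 0.09. Of the lists described below, it held for the proteasome-bound factors, the immunosubunits and the transcription factors. It did not hold for the core assembly chaperones, the Vcp segregase list or the interferon response list. The part of cell division in the subunit values was not tested.

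**Figure D3:**
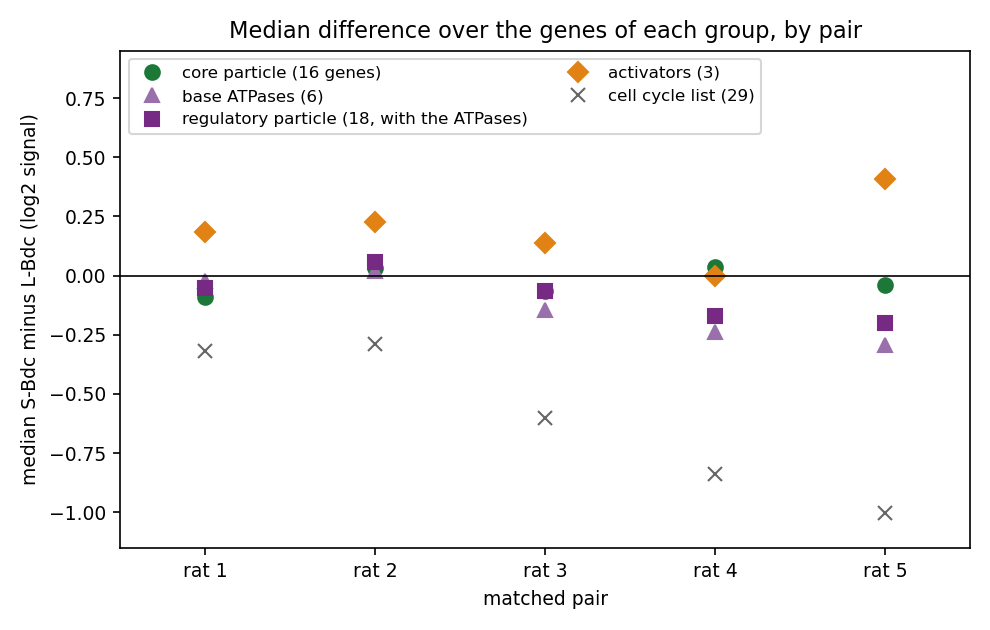
Median difference between S-Bdc and L-Bdc (vertical axis, log2 signal) over the genes of each group, within each of the 5 matched pairs (horizontal axis). The core particle stays between -0.09 and 0.03, the base ATPases reach -0.29 in rat 5, the activators reach 0.41 in rat 5, and the cell cycle list lies below 0 in all 5 pairs.

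Of the 3 activator genes, 1 was higher in S-Bdc and 0 were lower, against 4.43% of all probes higher and 4.68% lower. Psme1 had signals of 11.06, 11.04, 11.17, 11.01 and 11.25 in S-Bdc and of 10.89, 10.68, 10.85, 11.01 and 10.77 in L-Bdc, in rats 1 to 5. It was higher in S-Bdc in 4 of 5 pairs, whereas the cultures of rat 4 were alike, and the sites overlapped only through this rat. The difference was 0.26 ± 0.07 (limma, adjusted p = 0.047), or 1.20-fold. The call was lost without rat 2, 3 or 5 (adjusted p = 0.139, 0.16 and 0.15) without background correction (0.0709) and with processed intensities with a floor (0.292), with the direction kept.

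Psme2, the beta chain that assembles with the Psme1 product, had signals of 8.77, 8.94, 9.02, 8.55 and 8.96 in S-Bdc and of 8.58, 8.71, 8.88, 8.71 and 8.55 in L-Bdc. It was higher in S-Bdc in 4 of 5 pairs and lower in rat 4, and the sites overlapped. The difference of 0.16 ± 0.07 did not pass the threshold (limma, adjusted p = 0.292). Psme4, a nuclear activator known for the degradation of histones, had a difference of 0.15 ± 0.08 (adjusted p = 0.383), and was higher in S-Bdc in 3 of 5 pairs. The median of the 3 activators in rats 1 to 5 was 0.18, 0.23, 0.14, -0.003 and 0.41.

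Of the 3 immunosubunit genes, which are not members by the rule, 1 was higher in S-Bdc and 0 were lower, against the same shares of all probes. Psmb8, the one that was higher, takes the place of Psmb5. Its signal in rats 1 to 5 was 9.88, 9.22, 9.08, 8.83 and 8.74 in S-Bdc and 9.26, 8.38, 8.56, 8.37 and 8.36 in L-Bdc. It was higher in S-Bdc in 5 of 5 pairs, although L-Bdc of rat 1 exceeded S-Bdc of the 4 other rats. The difference was 0.57 ± 0.07 (limma, adjusted p = 0.00079), or 1.48-fold. Its 95% interval was 0.41 to 0.72, beside -0.15 to 0.14 for Psmb5, and the difference between both genes was not tested. With no replicate block for the pairing by rat, the adjusted p of Psmb8 was 0.147, and with processed intensities with a floor it was 0.0663.

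Psmb9, which takes the place of Psmb6, had a difference of 0.28 ± 0.11 (adjusted p = 0.193). Its signals of 7.35, 7.12, 6.98, 6.997 and 6.61 in S-Bdc and of 6.65, 6.59, 6.94, 6.72 and 6.76 in L-Bdc overlapped, and it was higher in S-Bdc in 4 of 5 pairs. Psmb10, which takes the place of Psmb7, had a difference of 0.08 ± 0.09 (adjusted p = 0.757), and its dimmer probe one of -0.01 ± 0.09 (adjusted p = 0.979). Of 14 measured genes of an interferon response list of 15, 3 were higher in S-Bdc (Gbp2, Ifit2 and Irf9) and 1 was lower (Mx1), which is 28.6% called against 9.10% of all probes, and the median of the list was 0.15. Of the 14, 9 were above background on all 10 arrays, and 20.0% of such probes were called. The list's median in rats 1 to 5 was 0.21, 0.15, 0.11, 0.22 and 0.05. The part of interferon in the values of Psmb8 and Psme1 was not tested.

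Psmd5 differed between rats. Its product is a chaperone of base assembly and not a subunit of the finished particle. In rats 1 to 5 its signal was 8.44, 7.80, 7.17, 7.53 and 8.17 in S-Bdc and 8.25, 7.86, 7.17, 7.86 and 8.69 in L-Bdc. Rat 3 was lowest at both sites, rats 1 and 5 were the 2 highest at both, and the means of the 5 rats spanned 1.26 on the log2 scale, beside a median span of 0.235 for the subunit genes. A moderated F-test over rats in the same limma fit, chosen after the values were seen, gave an adjusted p of 0.0297 for Psmd5, the only one of the 37 genes to pass, whereas 0.222% of all probes passed. The site difference was -0.14 ± 0.09 (adjusted p = 0.512). Without rat 3 the adjusted p between rats was 0.416, without rat 4 it was 0.0652, and with no normalisation between arrays, median scaling or processed intensities with a floor it was 0.434, 0.308 or 0.866.

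Psmb8 also passed the test between rats (adjusted p = 0.0164), with rat 1 highest at both sites and a span of 1.02. Without rat 1 its adjusted p between rats was 0.70, while the site difference was 0.55 (adjusted p = 0.0011). Without rat 3 or rat 4 the adjusted p between rats was 0.0503 or 0.0589, and it was 0.368 with no normalisation between arrays, 0.219 with median scaling and 0.718 with processed intensities with a floor.

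**Figure D4:**
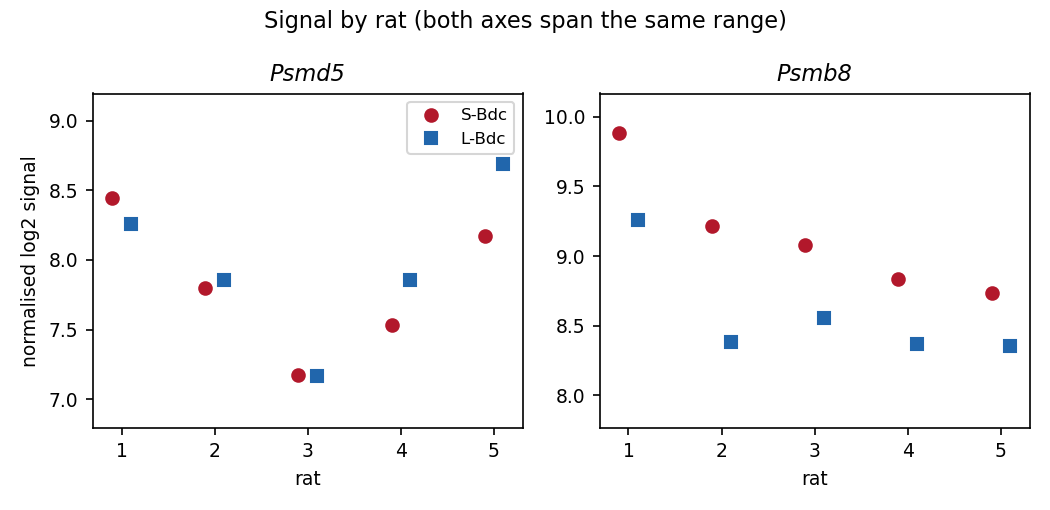
Normalised log2 signal (vertical axis, both panels spanning the same range) of Psmd5 and Psmb8 in the S-Bdc (circles) and L-Bdc (squares) culture of each rat (horizontal axis). In Psmd5 both cultures of rat 3 are lowest and those of rats 1 and 5 highest, and in Psmb8 S-Bdc lies above L-Bdc in each of the 5 rats.

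The genes that build, feed and control the proteasome were taken from lists and read in the same fit. Of the core assembly chaperones, 3 of 5 were measured and 0 passed in limma, against 9.10% of all probes. Of these 3, 1 had an unadjusted p under 0.05, against 18.8%. The 2 with the lowest adjusted p were Psmg1, which pairs with Psmg2 to assemble alpha rings (-0.15 ± 0.07, adjusted p = 0.243), and Pomp, which matures the beta rings (-0.03 ± 0.07, adjusted p = 0.893). Of the proteasome-bound factors, 10 of 16 were measured and 0 passed, with 2 at an unadjusted p under 0.05, against the same shares of all probes. Uchl5, a deubiquitinase of the base, had a difference of -0.22 ± 0.08 (adjusted p = 0.128), and Ubqln4, a shuttle for tagged substrates, one of -0.17 ± 0.06 (adjusted p = 0.151).

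Upstream of the particle, changes were found in single genes. Uba6, which activates ubiquitin and was the 1 measured gene of 6 in the ubiquitin list, had signals of 7.30, 7.30, 7.43, 7.25 and 7.57 in S-Bdc and of 6.68, 6.96, 6.97, 6.88 and 7.01 in L-Bdc. It was higher in S-Bdc without overlap, by 0.47 ± 0.06 (limma, adjusted p = 0.0008). Of the transcription factors that act on proteasome genes and their partners, 12 of 13 were measured, with 1 higher and 1 lower, or 16.7% against 9.10% of all probes. Of the 12, 9 were above background on all 10 arrays, and 20.0% of such probes were called. Nfe2l1 was not among the 12.

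Nfe2l2, which drives antioxidant and proteasome genes under oxidative stress, had signals of 10.73, 10.60, 10.72, 10.64 and 10.79 in S-Bdc and of 10.11, 10.08, 10.25, 10.08 and 10.48 in L-Bdc. It was higher in S-Bdc without overlap, by 0.50 ± 0.06 (limma, adjusted p = 0.00056). Nfyb, a subunit of the complex that binds CCAAT boxes, had signals of 7.25, 7.37, 7.41, 7.43 and 7.32 in S-Bdc and of 7.91, 7.95, 7.74, 7.82 and 7.54 in L-Bdc. It was lower in S-Bdc without overlap (-0.44 ± 0.07, adjusted p = 0.0034). Nfya and Nfyc, of the same complex, were not called, and Nfya was above background on 1 S-Bdc array and 1 L-Bdc array. The subunit genes were then set apart by motif. The median difference of the 8 genes with the antioxidant element was 0.014 and that of the others -0.034. With a CCAAT box it was -0.074 and without one 0.015, and with the interferon-stimulated element, in 4 genes, -0.11 and without it -0.0051. The part of Nfe2l2, Nfyb or interferon in the subunit values was not tested.

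Of the Vcp segregase list, whose products extract tagged proteins from membranes and complexes and hand them to the proteasome, 9 of 13 were measured, with 0 higher and 1 lower, or 11.1% against 9.10% of all probes. All 9 were above background on all 10 arrays, and 20.0% of such probes were called. Faf2, which recruits Vcp to the endoplasmic reticulum, was lower in S-Bdc in 5 of 5 pairs with no overlap of the sites (-0.32 ± 0.05, limma, adjusted p = 0.0042). The call was lost with no normalisation between arrays (adjusted p = 0.147), median scaling (0.0619) and processed intensities with a floor (0.0663). Vcp itself had a difference of -0.13 ± 0.07 (adjusted p = 0.422).

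Psmc3ip, which the rule's letters bring in, was lower in S-Bdc without overlap. Its signal in rats 1 to 5 was 6.86, 6.87, 6.82, 6.69 and 6.70 in S-Bdc and 6.92, 7.07, 7.10, 7.13 and 7.15 in L-Bdc. The difference was -0.29 ± 0.07 (limma, adjusted p = 0.024), and the call was lost without rat 3, 4 or 5 (adjusted p = 0.0862, 0.107 and 0.0862). It was also lost with no normalisation between arrays (0.217), median scaling (0.124) and processed intensities with a floor (0.215).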

How the data were processed

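The 10 arrays were 5 S-Bdc and 5 L-Bdc cultures. The raw intensities deposited by the authors are average bead signals from BeadStudio, neither background subtracted nor normalised, per the file headers. The processed intensities of the same arrays deposited by the authors served for gene names, for the background limit and as an alternative, and their settings are not given in the sources used here. No BeadStudio difference score was calculated.

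Identifiers of the raw and processed tables differ, so each raw row was paired with the processed row of nearest rank across arrays. All 22517 raw rows found a single mutual partner (rank distance up to 0.264%, the second-nearest row being 6.35 times as distant or more), and every gene name depends on this pairing and on the platform annotation. Raw signals underwent normexp correction (offset 50), log2 transformation and quantile normalisation (limma 3.58.1 in R 4.3.3). Rat and site were fitted by lmFit and eBayes, with Benjamini-Hochberg adjustment over all 22517 probes and a threshold of 0.05. A probe was above background over 8.51 processed units, the 95th percentile of the mirrored values at or below 0. The steps were tested on simulated data.

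Same-numbered cultures are paired because the labels give them the same rat. Their deviations around the mean of each site had correlations of 0.0597, 0.211, 0.25, 0.176 and 0.129 for rats 1 to 5. Replicates are separate animals. Slide and scan were not given in the sources used here. The members and the lists were chosen with earlier results of these data known. Genes given with values were the members called, the 2 smallest differences and the brightest and dimmest probe of each particle, the activators, the immunosubunits, and the called genes of each neighbouring list or the 2 with the lowest adjusted p. Psma6, Psmb6, Psmc1, Psmc3, Psmc4, Psmc5, Psmd5 and Psmd13, the other genes given with values and the test between rats were chosen after the values were seen. Alternatives were no background correction, no normalisation between arrays, median scaling, no dim probes, processed intensities with a floor of 16, the mean of a gene's probes, no block or a random block for rat, and each rat left out.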

Additional observations from a re-analysis of the deposited data

Results flagged for a closer look

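In 5 groups of 5 cultures, of 82 groups examined, 1 culture lay far from the other 4, and chance gives this in about 1 in 20 groups. Psmc1 had a signal of 11.17 in S-Bdc of rat 1, against 11.49 to 11.60 in the other S-Bdc cultures. Psmc4, of the same ATPase ring, had 10.78 in S-Bdc of rat 2, against 10.42 to 10.46. Psma4, an alpha ring subunit, had 10.71 in L-Bdc of rat 4, against 10.41 to 10.48. Psmb11 had 5.81 in S-Bdc of rat 2, against 5.98 to 6.03, where its probe was within the background range. Psmb8 had 9.26 in L-Bdc of rat 1, against 8.36 to 8.56.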

How the results depend on the processing

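The counts of core genes called, 0 in each direction, were the same under all 13 alternatives, and 24 of 32 genes given with values kept their direction. The count of regulatory genes lower in S-Bdc, 1 as reported, was 0 with no normalisation between arrays, with median scaling and with processed intensities with a floor, and 2 with no replicate block for the pairing by rat and with a random replicate block, where Psmc1 was added (adjusted p = 0.0451 and 0.0428). Without 1 rat it was 0 to 1. Without rat 2 the gene called was Psmc4 in place of Psmd12. The count of activators higher in S-Bdc, 1 as reported, was 0 with no background correction and with processed intensities with a floor, and 0 to 1 without 1 rat. Of all probes, 870 were called with no normalisation between arrays, 1268 with median scaling, 209 with processed intensities with a floor, and 1323 to 2219 without 1 rat. The causes were not tested. The median differences without 1 rat were -0.057 to 0.00022 for the core, -0.12 to -0.054 for the regulatory particle and 0.12 to 0.24 for the activators. With no normalisation between arrays and with median scaling, the core median turned to 0.012 and 0.0075, the regulatory median moved from -0.064 to -0.014 and -0.018, and the activator median was 0.22 and 0.21. Psmd12 passed under 6 of 13 alternatives (adjusted p from 0.0013 to 0.449), Psme1 under 8 (0.0225 to 0.292) and Psmb8 under 10 (8.9e-05 to 0.147). Nfe2l2, Nfyb and Uba6 lost their calls with processed intensities with a floor (adjusted p = 0.0526, 0.105 and 0.0602), Faf2 passed under 10 of 13 alternatives and Psmc3ip under 7. The count of subunit genes that differed between rats, 1 as reported, was 0 under 5 of 11 alternatives. The 8 other genes, with differences near 0 and 0 of them called, changed sign in part of the alternatives. Without 1 rat their differences were Psma1 (-0.092 to 0.047), Psmb4 (-0.0096 to 0.13), Psmb5 (-0.057 to 0.048), Psmc2 (-0.12 to 0.035), Psmc6 (-0.063 to 0.074), Psmd2 (-0.022 to 0.061), Psmd8 (-0.030 to 0.068) and Pomp (-0.088 to 0.017). With no normalisation between arrays, and then with median scaling, Psmb5 had 0.043 and 0.039, Psmc2 0.027 and 0.023, and Pomp 0.0052 and 0.0012.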
